A study of Mus musculus with 2 samples.

Results

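The antioxidant and glutathione genes described here are 41 gene symbols chosen by name: the superoxide dismutases, catalase, the glutathione peroxidases, the peroxiredoxins, the thioredoxin and glutaredoxin systems, the enzymes that make and recycle glutathione, 5 glutathione transferases, the regulator Nrf2 with its partner and targets, and selenoproteins P and W. They correspond to 42 of the 55536 gene records in the deposited tables, because Nnt has 2 records, and to 199 of the 141767 transcripts. The rule that names them uses no measured value, but they were named with earlier results of these data known. The series holds RNA-seq of polyadenylated RNA from mouse hippocampus: 2 libraries of a single group, numbered 1 and 2 as biological replicates. The labels give the strain as B6NCrl and describe the mice as C57BL/6 adults aged 6 months, with no treatment or genotype named, and each library was made from 20 ng of RNA. Both libraries carry the same donor entry and separate tissue entries, and whether they came from separate animals is not stated, so the spread between them may be technical. With 1 group there is no condition to compare and no test: the results are levels, and the difference between the libraries.

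Superoxide dismutases turn superoxide into hydrogen peroxide, which catalase, the glutathione peroxidases and the peroxiredoxins then remove. Glutathione peroxidases take their electrons from glutathione and most peroxiredoxins take theirs from thioredoxin, and both carriers are returned to the reduced state with NADPH. In the brain these systems are known to be spread over cell types and compartments, and several of the enzymes carry selenocysteine, an amino acid encoded by a UGA codon that otherwise ends translation.

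Depth was alike in both libraries: the expected counts, which are estimated read numbers that need not be whole, summed to 38921671 in replicate 1 and 39499357 in replicate 2. Levels are given as TPM, transcripts per 1000000, a unit scaled for transcript length and depth, from the first of 2 quantification programs unless the second is named. Although the labels describe the mouse as male, 4 Y-linked genes together held 1 read in replicate 1 and 0 reads in replicate 2, while Xist, which is made from the inactive X chromosome, held 694 and 611. Markers of neurons, astrocytes, oligodendrocytes, microglia and endothelium were present in both libraries with none differing by a log2 ratio of 1 or more. The 8 choroid plexus markers stood apart: they summed to 15288 TPM in replicate 1 but to 134 TPM in replicate 2, and all 8 were higher in replicate 1 by a log2 ratio of at least 1. Ependymal markers summed to 196 and 116 TPM, with 2 of 6 higher in replicate 1 by that much, and meningeal fibroblast markers summed to 1990 and 4652 TPM, with 2 of 6 higher in replicate 2. No marker of any of the 10 lists was at 0 in a library.

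Of the 42 records, 7 belong to genes with an annotated selenocysteine codon, and these sequences are shown because they carried a large share of the level of the whole set. Each stretch was read from the M21 reference transcript on the coding strand, 5′ to 3′, with the selenocysteine codon in capitals and the rest in lower case, and coordinates are those of the codon on mm10. The codon of Selenow is at chr7:15920464-15920466 on the minus strand. The others are on the plus strand: Gpx1 at chr9:108339451-108339453, Gpx3 at chr11:54907256-54907258, Gpx4 at chr10:80054737-80054739, the first of 10 such codons of Selenop at chr15:3274848-3274850, Txnrd1 at chr10:82896037-82896039 and Txnrd2 at chr16:18477772-18477774.
Selenow: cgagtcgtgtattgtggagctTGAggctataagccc
Gpx1: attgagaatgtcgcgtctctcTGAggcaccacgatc
Gpx3: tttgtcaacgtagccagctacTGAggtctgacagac
Gpx4: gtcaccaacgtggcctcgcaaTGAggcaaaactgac
Selenop: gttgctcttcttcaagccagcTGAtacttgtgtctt
Txnrd1: gacatcctccagtctggctgcTGAggt
Txnrd2: gagcctactgtgactggttgcTGAggc
The codon was number 13 of 88 in Selenow, 47 of 201 in Gpx1, 73 of 226 in Gpx3, 73 of 197 in Gpx4 and 59 of 380 in Selenop. In the thioredoxin reductases it was the next to last codon of the coding sequence, number 498 of 499 in Txnrd1 and 526 of 527 in Txnrd2. These 7 genes held 33.7% ± 2.20 (SD, n = 2) of the summed TPM of the set. They also held 74.9% ± 0.705 (SD, n = 2) of the TPM of all 24 genes annotated with such a codon, of which 20 were detected in both libraries. Both shares count every transcript of a gene, also those without the codon. Most of the TPM of the 7 genes was that of Selenow and Gpx4, with means of 2265 and 792 TPM. The lowest was Gpx3, at 14.4 TPM.

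All 42 records were detected, with at least 1 TPM in both libraries, against 24.8% of all annotated genes and 56.7% of protein-coding genes. Their median level was 69.4 TPM, beside 11.7 TPM over all detected genes. Together they made up 1.04% ± 0.0316 (SD, n = 2) of all TPM, and the 5 highest records held 55.2% ± 0.0281 (SD, n = 2) of that sum. Mean levels were at least 500 TPM for 9 records, 100 to 500 for 10, 10 to 100 for 16 and under 10 for 7.

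**Figure D1:**
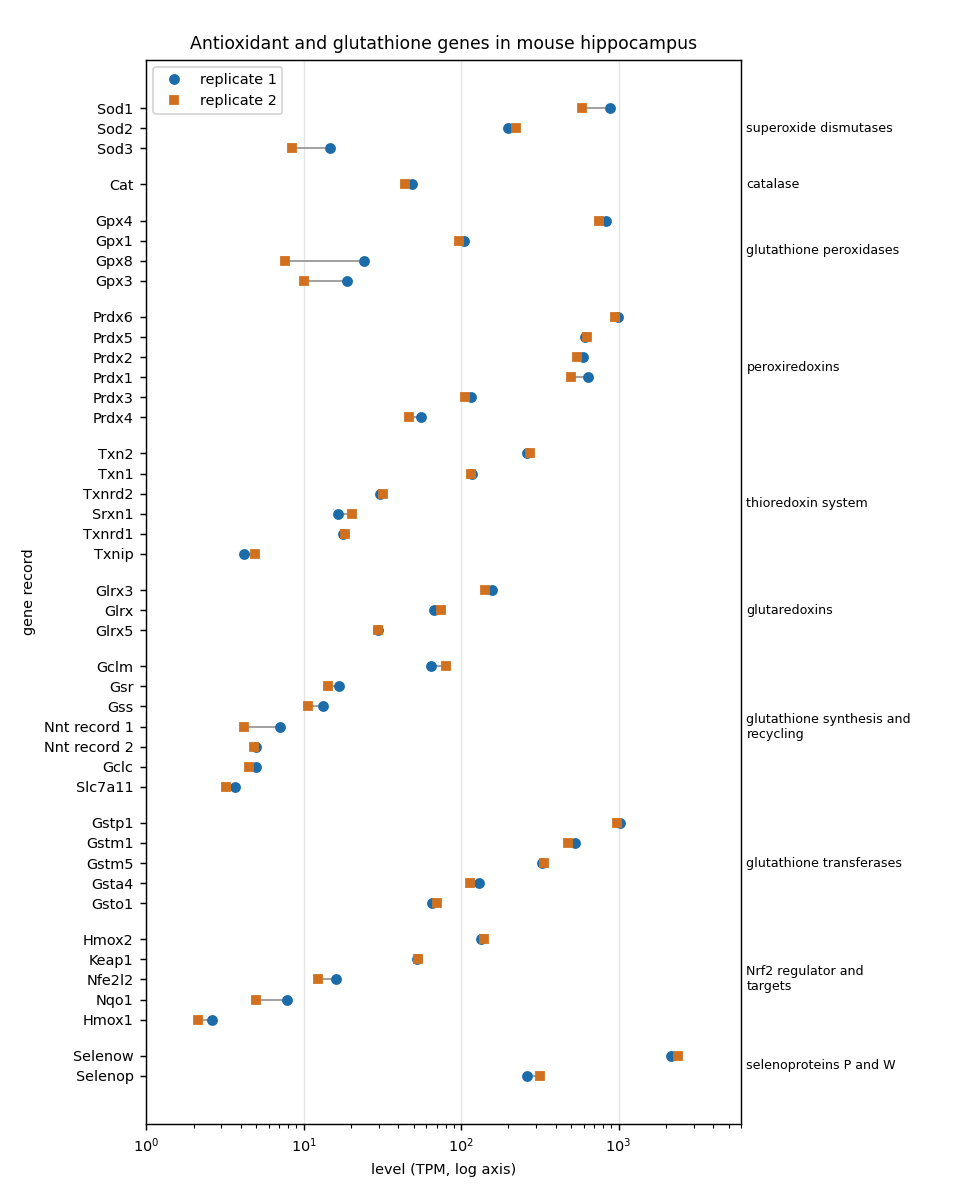
Level of each gene record in replicate 1 (circles) and replicate 2 (squares), in TPM on a log axis, with records grouped by role and a line joining the libraries; Nnt record 1 is ENSMUSG00000025453 and record 2 is ENSMUSG00000116207. Levels run from Hmox1 at 2.38 TPM to Selenow at 2265 TPM (means of both libraries), and the widest gap between the libraries is that of Gpx8.

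Selenow, a small redox protein, was the highest record of the set and had 2158 TPM in replicate 1 and 2372 TPM in replicate 2, rank 54 among all genes by mean TPM. Selenop, the secreted protein that carries selenium between cells, had 264 and 318 TPM. Both were somewhat higher in replicate 2, and Selenop lay well below Selenow.

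Among the superoxide dismutases, the cytosolic copper and zinc enzyme Sod1 had 878 and 584 TPM, and the mitochondrial manganese enzyme Sod2 had 198 and 224 TPM. The extracellular Sod3 was far lower, at 14.7 and 8.38 TPM. Sod1 thus held 76.0% ± 6.33 (SD, n = 2) of the TPM of the family. Counting transcripts annotated as protein-coding alone, Sod2 had 69.8 and 39.9 TPM, and Sod1 held 91.8% of the family. By expected counts, which are not divided by transcript length, Sod2 held the larger share, 52.0% against 43.1% for Sod1. Catalase (Cat), the peroxisomal enzyme, had 48.5 and 44.2 TPM.

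The glutathione peroxidases were led by Gpx4, the enzyme that reduces lipid hydroperoxides within membranes, with 833 and 752 TPM, or 85.9% ± 1.26 (SD, n = 2) of the family's TPM. Gpx1, the general cytosolic form, followed at 104 and 96.9 TPM. Gpx8, an endoplasmic reticulum form without selenocysteine, had 24 and 7.58 TPM, and Gpx3, the secreted form, had 18.9 and 10 TPM. Gpx1 and Gpx4 thus lay above both of the others in each library, while the ranges of Gpx8 and Gpx3 overlapped.

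The peroxiredoxins were the family with most members at high level. Prdx6, which also has phospholipase activity and uses glutathione, had 995 and 951 TPM. Prdx5, found in mitochondria, peroxisomes and cytosol, had 617 and 631 TPM. The cytosolic pair Prdx2 and Prdx1 followed: Prdx2 had 598 and 547 TPM, and Prdx1 had 640 and 501 TPM. Prdx1 could not be ordered against Prdx2 or Prdx5, since its range spanned both of theirs. Prdx5 was above Prdx2 in both libraries by the first program. By the second it was below, with 440 and 417 TPM for Prdx5 and 492 and 427 TPM for Prdx2. Mitochondrial Prdx3 had 116 and 106 TPM and Prdx4, the endoplasmic reticulum form, had 55.3 and 46.4 TPM, with no overlap between them.

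In the thioredoxin system the mitochondrial thioredoxin Txn2, at 263 and 274 TPM, exceeded the cytosolic Txn1, at 117 and 116 TPM. Txn2 held 58.8% ± 0.200 (SD, n = 2) of the TPM of this group. The same order held for the reductases that recharge them: the mitochondrial Txnrd2 had 30.5 and 31.9 TPM, and the cytosolic Txnrd1 had 17.7 and 18.2 TPM. These levels count every transcript, and the leading one of Txnrd2 carries no annotated selenocysteine codon, as given below. By expected counts the reductases stood the other way, with 952 and 969 reads for Txnrd2 and 1594 and 1651 for Txnrd1. Srxn1, which repairs over-oxidised peroxiredoxins, had 16.5 and 20.4 TPM, a range that took in that of Txnrd1. Txnip, an inhibitor of thioredoxin, was the lowest of the group at 4.16 and 4.94 TPM.

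The glutaredoxins, which use glutathione to reduce protein disulfides or to handle iron-sulfur clusters, did not overlap. Glrx3 had 157 and 143 TPM, cytosolic Glrx had 67.2 and 74.3 TPM, and mitochondrial Glrx5 had 29.5 and 29.8 TPM.

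Glutathione synthesis and recycling held low and moderate levels. Gclm, the modifier subunit of the rate-limiting enzyme glutamate-cysteine ligase, had 64.7 and 79.7 TPM by the first program and 39.9 and 53.4 TPM by the second. Its catalytic subunit Gclc had 5.0 and 4.5 TPM by the first program and 4.31 and 3.74 TPM by the second, so the subunits were far apart in each library by both. Gss, which completes glutathione, had 13.4 and 10.7 TPM. Gsr, which returns oxidised glutathione to its reduced form, had 16.8 and 14.2 TPM, and Slc7a11, the transporter that brings in cystine, had 3.68 and 3.20 TPM. Gclm held 60.8% ± 6.90 (SD, n = 2) of the group's TPM but 36.9% of its expected counts, and the transcript it was assigned to differed between the programs, as given below with the other transcripts.

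The glutathione transferases attach glutathione to electrophiles. Gstp1, of the pi class, had 1019 and 972 TPM, second to Selenow in the set. Its range overlapped that of Prdx6, at 995 and 951 TPM, though it was above Prdx6 in each library. The mu class members came next: Gstm1 had 525 and 476 TPM, and Gstm5 had 327 and 334 TPM. Gsta4, which acts on lipid aldehydes, had 130 and 114 TPM and Gsto1, of the omega class, had 65.3 and 70.8 TPM. The 5 genes kept this order in both libraries, without overlap.

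Nfe2l2, the gene of the transcription factor Nrf2, had 16.0 and 12.3 TPM. Keap1, the adaptor that marks Nrf2 for degradation, had 52.7 and 53.0 TPM and was above Nfe2l2 in both libraries. The quinone reductase Nqo1, a standard Nrf2 target, had 7.86 and 5.0 TPM. Of the heme oxygenases, the constitutive Hmox2 had 134 and 140 TPM and the inducible Hmox1 had 2.62 and 2.14 TPM, the lowest level of the set, from 113 and 95 expected reads.

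Reads of a few genes cannot be assigned with certainty. Within the reference transcripts, 18 records shared no 50-base word with another gene and 29 shared under 10% of theirs. Gpx4 shared 34.7% of its words with the processed pseudogene Gpx4-ps2, to which 2354 and 2378 expected reads were assigned. Gstp1 shared 33.7% with Gstp2, which received 31.6 and 42.4 reads. Some genes overlap a gene on the opposite strand, and whether the counting used strand is not given in the sources used here. Beside Gss lies Acss2, with 326% as many reads as Gss, and beside Hmox2 lies Cdip1, with 183% as many as Hmox2. The levels of Gss and Hmox2 are therefore uncertain if reads from those genes were counted for them.

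Most members gave a protein-coding transcript as their main form. Among the 36 records with at least 5 TPM in both libraries, the median share of TPM on transcripts annotated as protein-coding was 99.7%, beside 97.7% over 8946 protein-coding genes at that level. Only Prdx6, Sod2 and Glrx5 had a mean over the libraries of under 75% on coding transcripts in both programs. These were 3 of 36 records, against a background of 18.3% counted in the same way. Txnip, which was below that level, had 57.9% and 51.7% on coding transcripts by the first program and 63.0% and 61.7% by the second. Within it the coding Txnip-201 held 47.1% and 20.7% of the gene's TPM, and the coding Txnip-202 held 10.8% and 31.0%. For Prdx6 the coding share was 21% and 23.6% in the first program and 15.7% and 16.1% in the second. The leading transcript was Prdx6-208, annotated as a target of nonsense-mediated decay, with 45.8% ± 0.394 (SD, n = 2) of the gene's TPM. The coding transcript Prdx6-202 held 20.0% ± 1.67 (SD, n = 2) in the first program and 12.9% ± 0.146 (SD, n = 2) in the second. Counting coding transcripts alone by the first program, Prdx6 had 209 and 225 TPM. In both libraries this was below Prdx5, at 614 and 628 TPM, Prdx1, at 640 and 501 TPM, and Prdx2, at 513 and 485 TPM.

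**Figure D2:**
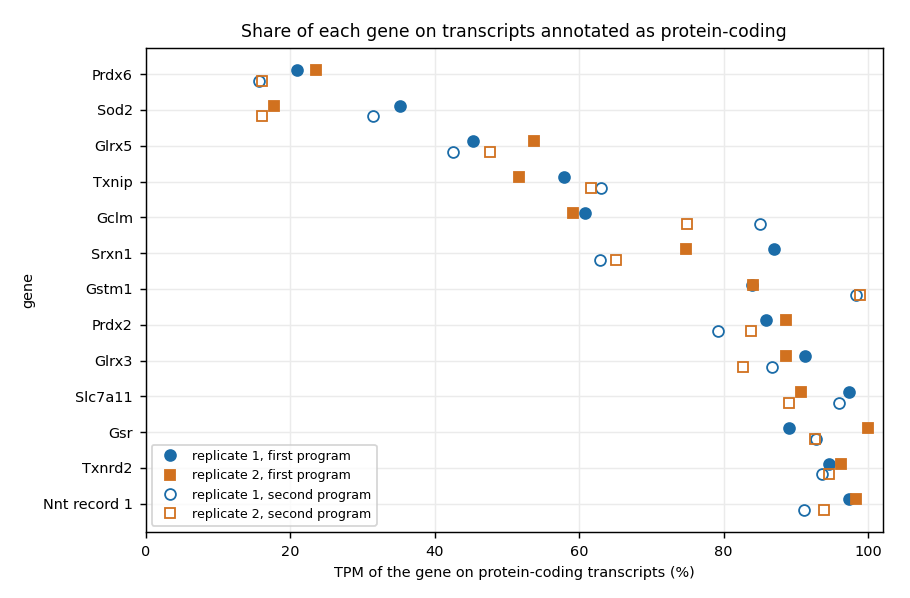
Percent of each gene's TPM on transcripts annotated as protein-coding, for the 13 gene records where it was lowest, in replicate 1 (circles) and replicate 2 (squares) by the first program (filled) and the second (open). Prdx6 and Sod2 sit at the left, Prdx6 between 15.7% and 23.6% and Sod2 between 16.2% and 35.2%.

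The transcripts of Sod2 were divided differently in the libraries. The coding transcript Sod2-201 held 35.2% of the gene's TPM in replicate 1 and 17.8% in replicate 2, and 31.2% and 16.2% by the second program. The retained-intron transcript Sod2-204 held 34.4% and 42.2%, and the processed transcript Sod2-207 held 29.1% and 38.9%. In scaled counts the log2 ratio of replicate 2 over replicate 1 was -0.79 for Sod2-201, 0.52 for Sod2-204 and 0.63 for Sod2-207. The gene as a whole went opposite ways on the scales: Sod2 was higher in replicate 2 by TPM, and lower there by expected counts, with 15110 reads in replicate 1 and 11470 in replicate 2. Sod2 shared 21% of its 50-base words with other genes.

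The programs gave the same leading transcript in both libraries for 26 of the 31 members with at least 5 TPM and more than 1 transcript, against 82.8% of 8477 genes. The exceptions were Gclm, Glrx5, Prdx2, Prdx5 and Sod2. For Gclm the first program led with the non-coding Gclm-202, at 39.0% ± 0.378 (SD, n = 2), and the second with the coding Gclm-206, at 43.9% ± 0.702 (SD, n = 2). By the first program Glrx5 was divided between the non-coding Glrx5-202, with 54.7% and 46.2%, and the coding Glrx5-201, with 44.3% and 52.7%. The second program gave Glrx5-202 57.5% and 52.3%, and Glrx5-201 26.0% and 24.8%. It gave the coding Glrx5-203 16.6% and 22.9%. The forms of Gpx4 and Txnrd2 also matter. Gpx4-202 led with 79.5% ± 0.0645 (SD, n = 2) by the first program and 96.6% ± 0.387 (SD, n = 2) by the second. For Txnrd2 the first program gave the leading Txnrd2-206 51.3% ± 3.76 (SD, n = 2). Next came Txnrd2-203, the form whose selenocysteine codon is shown above, with 42.5% ± 3.40 (SD, n = 2). Txnrd2-206 carries no annotated selenocysteine codon.

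**Figure D3:**
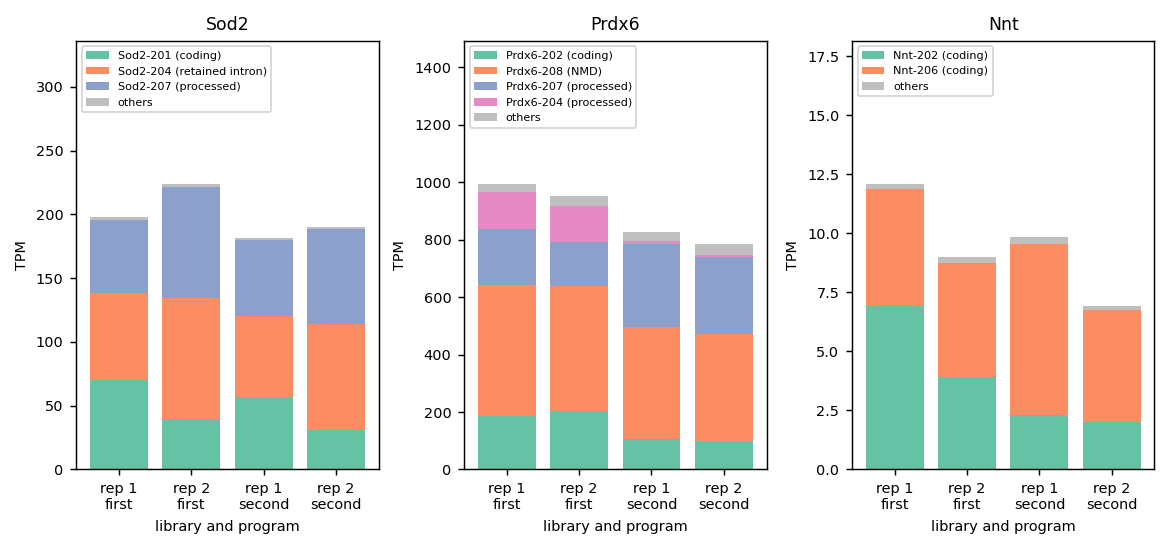
TPM of Sod2, Prdx6 and Nnt in each library by the first and second program, with bars starting at 0 and divided by transcript; NMD marks nonsense-mediated decay. The Sod2-201 part is smaller in replicate 2 by both programs, Prdx6-208 is the largest part of Prdx6, and the division of Nnt between Nnt-202 and Nnt-206 differs between the programs.

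Nnt, the mitochondrial enzyme that makes NADPH from NADH, was the member that the programs placed most differently. The C57BL/6J strain is known to carry a deletion of several Nnt exons that C57BL/6N mice lack, and the mm10 assembly was made from C57BL/6J. Its main transcripts, Nnt-202 of one record and Nnt-206 of the other, have 17 exons each, of which 15 are identical, and all 16 coding parts are the same, a coding sequence of 2505 bases. The record ENSMUSG00000116207 shared 100% of its 50-base words with the other. The first program gave record ENSMUSG00000025453 7.12 and 4.16 TPM and record ENSMUSG00000116207 4.98 and 4.82 TPM, while the second gave them 2.62 and 2.18 TPM, and 7.24 and 4.73 TPM. Summed over both records, Nnt had 12.1 and 8.98 TPM by the first program and 9.86 and 6.91 TPM by the second. The log2 ratio of replicate 2 over replicate 1 of the summed counts was -0.41 and -0.42 by the programs, whereas the single records gave -0.75 and -0.02 by the first and -0.17 and -0.53 by the second. These records were the only 2 of the 42 whose level by the second program lay more than 0.5 (log2) from the median shift between programs; 94.4% of 13726 detected genes lay within it.

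Differences between the libraries were measured as the log2 ratio of replicate 2 over replicate 1 of expected counts scaled by TMM, a method that sets library sizes by the bulk of genes. Intervals are exact 95% Clopper-Pearson intervals, which cover counting error only and not the spread between samples. Reads from amplified fragments are not independent molecules, so the intervals may be too narrow even for counting error. With a mean of at least 50 reads required, all 42 records could be used, beside 14080 genes in all. Only Gpx8 differed by a log2 ratio of at least 1, that is 1 of 42 records, against 2.41% of all genes (1.97% higher in replicate 1 and 0.433% higher in replicate 2). Its ratio was -1.64 (-1.89 to -1.41), from 595 reads in replicate 1 and 191 in replicate 2, with the second program at -1.67. A difference at least as large was seen in 0.767% of genes.

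At a log2 ratio of 0.5, a threshold chosen after seeing the data, 6 records were higher in replicate 1 (background 7.12%) and 0 were higher in replicate 2 (background 3.41%). After Gpx8 came Gpx3 at -0.89 (-1.06 to -0.72) and Sod3 at -0.78 (-0.90 to -0.66). Nnt record ENSMUSG00000025453 was at -0.75, a value that the sum over its records did not hold, as given above. Nqo1 was at -0.62 (-0.88 to -0.37) and Sod1 at -0.54 (-0.58 to -0.50). By the second program Sod1 was at -0.49, on the other side of that threshold. Choroid plexus markers were higher in replicate 1 together with these genes, with a median log2 ratio of -4.00 over the 8 markers and single values from -6.97 to -2.89. Red blood cell markers were also higher there, at 33.4 and 20.4 TPM in sum, and the 3 of 5 with enough reads had ratios from -0.89 to -0.51. The 6 ependymal markers had a median ratio of -0.54, and the 7 astrocyte markers one of -0.24, with single values from -0.30 to 0.08. Meningeal fibroblast markers went the other way, with a median of 0.51. The medians of the remaining lists lay between -0.02 (oligodendrocytes) and 0.22 (glutamatergic neurons). The part of these cell types in the result was not tested. In whole tissue, fewer cells of a type and less RNA per cell cannot be told apart.

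**Figure D4:**
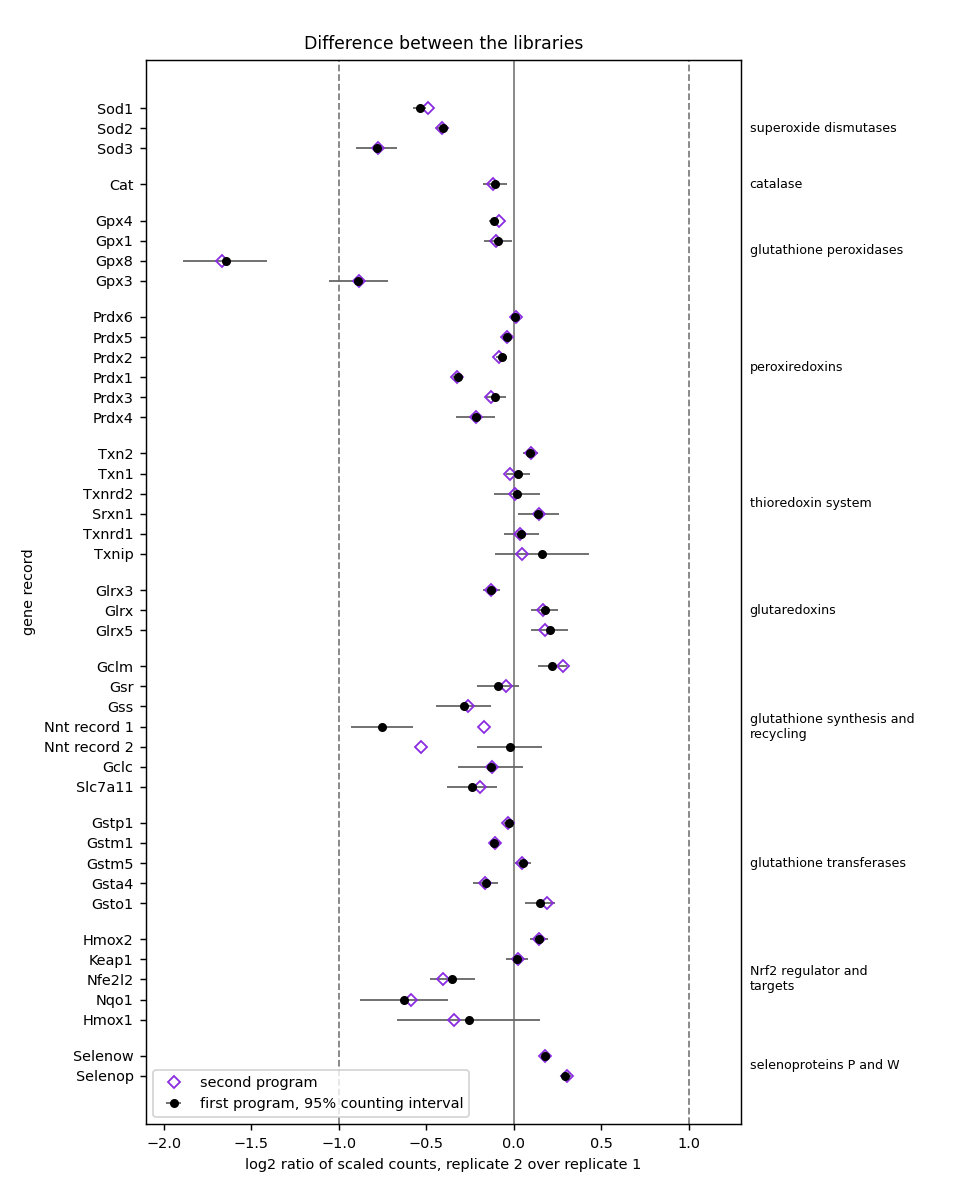
Log2 ratio of scaled counts, replicate 2 over replicate 1, for each gene record: filled points with 95% counting intervals are the first program, open diamonds the second, and dashed lines mark a ratio of 1 in either direction. Gpx8 at -1.64 is the only record beyond a dashed line, and the highest point is Selenop at 0.30.

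The rest of the set differed little. Between the libraries 30 of the 42 records differed by a log2 ratio of under 0.25, or 71.4%, beside 68.0% of all genes. The median size of the ratio was 0.15 for the set and 0.16 for all genes. The median ratio was -0.09 for the set and 0.01 for all genes, with 26 records below 0 and 16 above, or 61.9% below 0 beside 49.2% of all genes. By role, all 3 superoxide dismutases and all 4 glutathione peroxidases were below 0, as were 5 of 6 peroxiredoxins, the lowest of these Prdx1 at -0.32. All 6 genes of the thioredoxin system were between 0.02 and 0.16 by the first program, with Txn1 at -0.02 by the second. Selenow at 0.18 (0.16 to 0.20) and Selenop at 0.30 (0.27 to 0.33) were higher in replicate 2, with 38456 and 43828 reads for Selenow. Among the Nrf2 genes, Nfe2l2 was at -0.35 (-0.48 to -0.22) and Keap1 at 0.02 (-0.04 to 0.08). For Hmox1 the interval, -0.67 to 0.15, took in 0 at this depth.

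A further list of 84 genes of the same pathways showed where the set stands. Of these, 67 were detected in both libraries (79.8%), with a median of 33.5 TPM over the detected genes. The highest were the iron-storage genes Fth1, with 11856 and 11683 TPM, and Ftl1, with 1393 and 1349 TPM, followed by Park7, a redox-sensitive protein linked to Parkinson's disease, with 492 and 483 TPM. All 7 NADPH-supplying enzymes, all 7 further thioredoxin and glutaredoxin genes and 12 of 14 further selenoproteins were detected. Of the 4 further glutathione peroxidases 1 was detected, and Gpx5 held 0 reads in both libraries, where 3 reads would be 0.0771 and 0.0760 counts per 1000000. Of the 68 genes with enough reads, 0 differed by a log2 ratio of at least 1 (background 2.41%). At 0.5, 7 of the 68 were higher in replicate 1 (background 7.12%) and 0 in replicate 2 (background 3.41%). The lowest ratio of the list was -0.92, that of Ucp2, an inner-membrane carrier of mitochondria, named here after its value was seen.

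Nrf2 acts through the antioxidant response element. Its core, TGACNNNGC, was searched on both strands in RefSeq promoter windows of 300 bases on GRCm38.p6, the assembly behind mm10. Windows were given for 34 of the 41 genes, and 7 of these (20.6%) held the core, beside 14.0% of 27025 genes. By window the shares were 7 of 45 (15.6%) and 12.4% of 32851. No window was given for Gclc, Gsr, Gsta4, Hmox1, Nnt, Prdx6 and Sod3. Nqo1, named above as a standard Nrf2 target, had a window without the core. A match is a description of the letters and not evidence of a bound site. Genes with a match were Gclm, Gstm5, Nfe2l2, Prdx1, Sod1, Srxn1 and Txnrd1, and the stretches of 4 of them that are well-known Nrf2 targets are shown, with the core in capitals. They are read on each gene's plus strand and all 4 hold the core on the opposite strand, so that the capitals are its reverse complement. They lie at chr3:122245413-122245441 (Gclm), chr4:116685456-116685484 (Prdx1), chr2:152105542-152105570 (Srxn1) and chr10:82859104-82859132 (Txnrd1).
Gclm: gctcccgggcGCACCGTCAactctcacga
Prdx1: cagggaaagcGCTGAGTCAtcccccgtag
Srxn1: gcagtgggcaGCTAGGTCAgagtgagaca
Txnrd1: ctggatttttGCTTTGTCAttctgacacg
These 4 genes did not share a direction between the libraries: Prdx1 was at -0.32, Txnrd1 at 0.04, Srxn1 at 0.14 and Gclm at 0.22 (log2 ratio of replicate 2 over replicate 1).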

How the data were processed

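Per the file headers, the deposited tables of the first program hold an expected count, a TPM and an FPKM for each gene and transcript, in the column layout of RSEM. Those of the second program hold an estimated count and a TPM for each transcript, in the layout of kallisto. Reads were quantified by the authors against mm10 with the M21 annotation, per the text deposited with the tables. The program names, with their versions, were not given in the sources used here. The estimated counts of the second program summed to 55151500 in replicate 1 and 55608190 in replicate 2. Rows naming no gene (26345, of which 26248 are named by a number) held 2.31e-05% and 1.64e-05% of expected counts and were left out.

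All 55536 gene rows matched the M21 annotation, and the second program's transcripts were summed per gene. Expected counts were rounded and scaled by TMM in edgeR 4.0.16 (R 4.3.3; factors 1.005 and 0.995). The log2 ratio used a prior count of 0.5 and a mean count of at least 50. Its calculation was tested on simulated data. Intervals came from scipy 1.17.1.

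The members, the further list of 84 genes and the markers were chosen with earlier results of these data known. All members are named. Of the further list the 3 highest, the lowest and any gene past a log2 ratio of 1 were to be named, and of each member its leading transcript, with the next where programs or libraries differed. Alternatives were size factors of DESeq2 1.42.0, library totals, count minimums of 10 and none, a prior of 5, TPM minimums of 0.1 and 5, FPKM, the second program, leaving out mitochondrially encoded genes, shares of expected counts, and leaving out each replicate. Not every overlap of a member with a gene on the opposite strand is reported here.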

Additional observations from a re-analysis of the deposited data

How the results depend on the processing

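The share of all TPM held by the set moved by more than the spread between libraries: it was 0.871% by the second program, 1.17% with mitochondrially encoded genes left out of the total and 0.776% as a share of expected counts. Leaving out each library in turn gave 1.02% and 1.07%. Under every alternative named for the ratios, Gpx8 was 1 record past a log2 ratio of 1 and the median of the set lay between -0.10 and -0.08. At 0.5, 5 records were higher in replicate 1 by the second program or with the Nnt records summed, instead of 6. At a minimum of 5 TPM, 36 of 42 records were detected. By the second program 40 of 42 levels were lower, and 33 moved by more than the spread between libraries. Over 13726 detected genes the median log2 ratio of the second program's TPM over the first's was -0.25. Relative to that shift the median of the set was -0.02, so the lowering was not particular to the set. The cause was not tested. With 1 library no ratio can be formed, so leaving out a library gave none for the differences. No paired analysis was possible because there is only 1 group. Depth limits Hmox1 most, and 2 libraries limit every SD.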
